A study of Mus musculus with 6 samples.

Results

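Across the 6 RNA-seq libraries of a study of acetaminophen injury in mouse liver, 10 genes of Kupffer cells and monocytes were followed. They were listed by symbol and taken from the deposited table by exact match of the gene name, and all 10 were found among its 55401 genes. The members are *Clec4f*, *Vsig4*, *Timd4*, *Cd163*, *Marco* and *Cd5l*, which mark Kupffer cells, *Adgre1* and *Csf1r*, which mark macrophages in general, and *Cd14* and *Ly6c2*, which are read as monocyte genes.

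Whole liver of C57BL/6 mice was sequenced as poly(A) RNA, with 2 libraries in each group. The COS+APAP group (replicates 2 and 3) received 20 mg/kg costunolide (COS, a sesquiterpene lactone from plants) 12 h and again 40 min ahead of 400 mg/kg acetaminophen (APAP, paracetamol) into the peritoneum, and livers were taken 6 h after APAP. The APAP group (replicates 1 and 3) received that APAP dose without COS, and the control group (replicates 1 and 3) is labelled normal. Age, sex, vehicle and the hour at which control livers were taken are not given in the sources used here, nor whether the libraries of a group came from different animals, so that p-values measure the spread between these libraries, which may be technical. The labels' protocol field assigns the pretreatment by sample number, and in listing order those numbers fall on the libraries titled model, which every other field gives as APAP without COS. Groups follow those other fields, and with the opposite assignment each difference between COS+APAP and APAP would have the reverse sign and the values given for APAP against control and for COS+APAP against control would change places. COS+APAP titles also begin with another number than the remaining titles, so that COS and any batch that follows this number cannot be told apart.

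Kupffer cells are the resident macrophages of the liver. They sit inside the sinusoids, take up bacteria, damaged red cells and dying cells from the blood, and need signalling through the CSF1 receptor to persist. After acetaminophen injury, monocytes from blood are known to enter the liver by way of the chemokine receptor CCR2, and to differ from Kupffer cells by high Ly6C and by the lack of CLEC4F and TIM4. In RNA of whole liver, fewer cells of a type and less RNA per cell cannot be told apart.

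Of the 10 members, 9 had a mean of at least 1 FPKM (fragments scaled to transcript length and library size, a level that can be compared between genes) and entered the test, which was edgeR's quasi-likelihood test on the estimated counts with Benjamini-Hochberg adjustment over 10051 genes. *Adgre1* passed this filter with a mean of 1.007 FPKM, close to its edge, and *Ly6c2*, with a mean of 0.1217 FPKM, did not. The pass of *Adgre1* came through the APAP libraries, as its mean was 0.88 FPKM in control and 0.515 FPKM in COS+APAP. A gene is said to have risen or fallen where the adjusted p was below 0.05. With 2 libraries against 2, an exact permutation test of 1 gene cannot go below p = 0.33, so each call rests on the spread shared across genes and groups. Whether groups overlapped is given below as a description only, and the share of all genes without overlap was not counted. Libraries held 71115112 to 76669799 estimated counts, and since low counts were mostly multiples of about 4, 1 fragment was taken as about 4 counts. The members' values then rest on 4 to 12 fragments per library for *Ly6c2*, 25 to 122 for *Adgre1*, 36 to 115 for *Timd4* and 1011 to 1566 for *Clec4f*.

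In control liver the order of levels was *Clec4f* (21.12 ± 1.167 FPKM, mean ± SD, n = 2), *Cd5l* (14.13 ± 1.124), *Vsig4* (8.585 ± 0.9687), *Csf1r* (5.265 ± 0.1485), *Marco* (4.835 ± 0.07778) and *Cd163* (1.78 ± 0.1131). *Cd14*, *Timd4* and *Adgre1* followed between 0.61 and 1.21 FPKM with overlapping libraries, and *Ly6c2* stood last at 0.12 ± 0.05657 FPKM. All 6 Kupffer cell markers were thus measured in control liver, while *Ly6c2* and *Ccr2*, which define inflammatory monocytes, stayed at or below 0.2 FPKM in every library of the study.

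**Figure D1:**
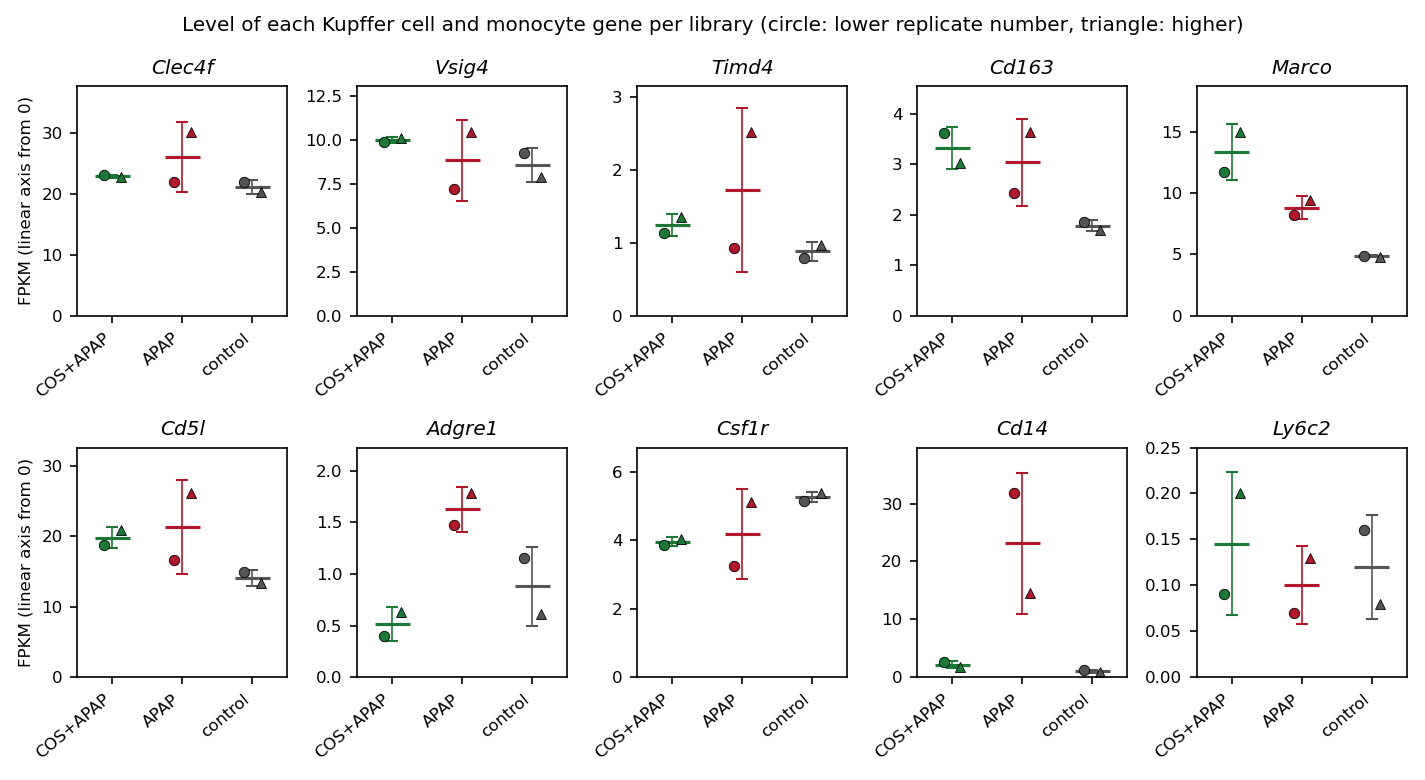
FPKM of each of the 10 genes (linear vertical axes from 0, 1 panel per gene) in the COS+APAP, APAP and control libraries. Points are libraries, horizontal bars are means of 2 libraries and error bars are SD. *Marco* stands highest in COS+APAP (11.71 and 14.98 FPKM), *Cd14* in APAP (31.76 and 14.51 FPKM), and *Ly6c2* stays at or below 0.2 FPKM in all 6 libraries.

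The comparison of APAP with control asks which of these genes differed 6 h after the toxic dose. *Marco*, *Cd163*, *Cd5l* and *Cd14* rose, 4 of the 9 tested members, while none fell by edgeR (0 also at an unadjusted p below 0.05, and 0 by DESeq2 and limma). Over all 10051 genes, 23.3% rose and 22.1% fell in this comparison, 45.4% in all. The members had a median log2 fold change of 0.90, and all tested genes one of 0.00. The APAP libraries differed from each other in this respect: replicate 3 had more than replicate 1 of 9 of the 10 members, by 1.16-fold (*Marco*) to 2.71-fold (*Timd4*). Over 10025 genes 57.5% were higher in replicate 3, and the median ratio was 1.04. Among the 9 is *Ly6c2*, below the filter, with about 8 fragments in replicate 3 against 4 in replicate 1. The exception was *Cd14*, at 0.457 of the replicate 1 level in replicate 3.

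*Marco* (ENSMUSG00000026390, chromosome 1, 120474538 to 120505024) encodes a collagen-like scavenger receptor that binds bacteria and particles. It had 8.17 and 9.46 FPKM in APAP, against 4.89 and 4.78 FPKM in control. Both APAP libraries stood above both control libraries, and *Marco* rose by a log2 fold change of 1.00 ± 0.17 (SE, adjusted p = 0.00658 by edgeR), a call that all 16 alternative settings gave as well. *Cd163* (ENSMUSG00000008845, chromosome 6, 124304656 to 124330527), the receptor that clears haemoglobin bound to haptoglobin, had 2.43 and 3.64 FPKM in APAP, against 1.86 and 1.70 FPKM in control. The groups did not overlap, and *Cd163* rose by 0.90 ± 0.21 (adjusted p = 0.0203 by edgeR). That call was lost without control replicate 1 (adjusted p = 0.0609), control replicate 3 (0.0887) or APAP replicate 3 (0.0657). *Cd5l* (ENSMUSG00000015854, chromosome 3, 87357881 to 87371073), a protein that macrophages secrete into blood, had 16.58 and 26.10 FPKM in APAP, against 14.93 and 13.34 FPKM in control. The groups did not overlap, and *Cd5l* rose by 0.73 ± 0.22 (adjusted p = 0.0428 by edgeR), close to the threshold. Of 16 alternatives 4 gave the call for *Cd5l*, and it was lost without any 1 library other than APAP replicate 1 (adjusted p = 0.0668 to 0.161), with a log2 fold change of 0.39 without APAP replicate 3.

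The other Kupffer cell members did not pass. *Clec4f* (ENSMUSG00000014542, chromosome 6, 83644542 to 83656187), a C-type lectin that in mice is found on Kupffer cells, had 21.90 and 30.13 FPKM in APAP, against 21.95 and 20.30 FPKM in control. The groups overlapped, with 1 APAP library at the control level and the other above it. The log2 fold change of *Clec4f* was 0.43 ± 0.16 (95% interval 0.03 to 0.83, adjusted p = 0.0738 by edgeR), and without APAP replicate 1 it passed at 0.61 (adjusted p = 0.035), while without APAP replicate 3 it was 0.22 (adjusted p = 0.279). *Vsig4* (ENSMUSG00000044206, chromosome X, 96247203 to 96293438), a receptor for fragments of complement C3, had 7.21 and 10.45 FPKM in APAP, against 9.27 and 7.90 FPKM in control. The APAP libraries lay on either side of the control libraries, and the interval of the log2 fold change of *Vsig4* was -0.33 to 0.68. *Timd4* (ENSMUSG00000055546, chromosome 11, 46810800 to 46844332), a receptor for phosphatidylserine on dying cells, had 0.93 and 2.52 FPKM in APAP, against 0.79 and 0.97 FPKM in control. A single APAP library was high, and the fold change of *Timd4* (1.09 ± 0.48, adjusted p = 0.113) passed without APAP replicate 1 (1.61, adjusted p = 0.0215) but was 0.24 (adjusted p = 0.59) at its lowest among the alternatives, without APAP replicate 3.

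**Figure D2:**
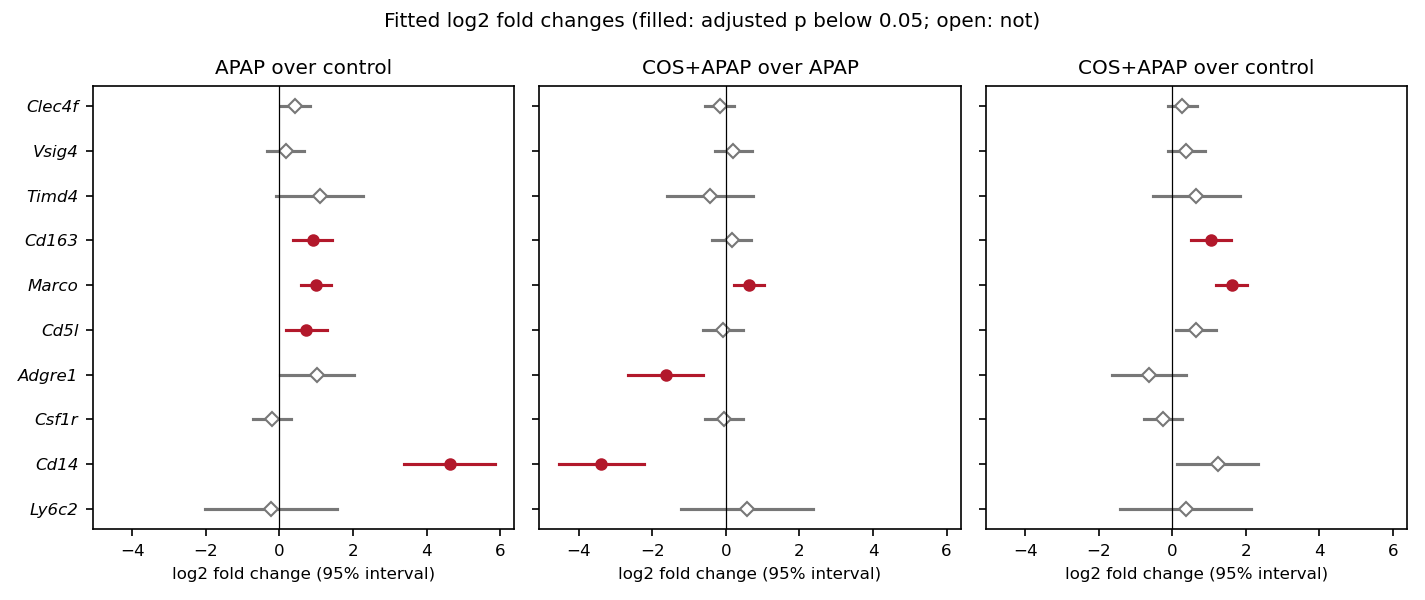
Fitted log2 fold changes with 95% intervals for the 10 genes in each comparison, with a vertical line at 0. Filled circles passed an adjusted p of 0.05, open diamonds did not, and *Ly6c2* comes from a fit of 17050 genes with a mean of at least 0.1 FPKM. The interval of *Clec4f* spans -0.56 to 0.23 for COS+APAP over APAP, where that of *Marco* spans 0.21 to 1.03.

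Both general macrophage genes missed the threshold in this comparison. *Adgre1* (ENSMUSG00000004730, chromosome 17, 57358691 to 57483527), which encodes the adhesion receptor F4/80, had 1.47 and 1.78 FPKM in APAP, against 1.15 and 0.61 FPKM in control. The groups did not overlap, and the log2 fold change of *Adgre1* was 1.01 ± 0.40 (adjusted p = 0.09 by edgeR), which passed without control replicate 1 (1.56, adjusted p = 0.0456) and was 0.62 without control replicate 3 (adjusted p = 0.272). *Csf1r* (ENSMUSG00000024621, chromosome 18, 61100598 to 61131134), the receptor for the macrophage growth factors CSF1 and IL-34, had 3.26 and 5.11 FPKM in APAP, against 5.16 and 5.37 FPKM in control. Replicate 1 of APAP was low and replicate 3 near control, with a log2 fold change of -0.20 ± 0.21 for *Csf1r* (adjusted p = 0.47 by edgeR) that passed as lower without APAP replicate 3 (-0.53, adjusted p = 0.0499) and was 0.05 without APAP replicate 1. Of its ligands, *Csf1* had 2.08 and 1.99 FPKM in APAP, against 3.12 and 4.70 FPKM in control (log2 fold change -0.80 ± 0.36, adjusted p = 0.118 by edgeR). *Il34*, below the filter, had 0.14 and 0.43 FPKM in APAP, against 0.75 and 0.73 FPKM in control.

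*Cd14* (ENSMUSG00000051439, chromosome 18, 36725067 to 36726798) encodes the co-receptor that hands bacterial lipopolysaccharide to TLR4, and hepatocytes as well as macrophages are known to make it in inflammation. It had 31.76 and 14.51 FPKM in APAP, against 1.21 and 0.85 FPKM in control, so that it ranked with *Clec4f* and *Cd5l* after APAP. Both APAP libraries lay far above control and also differed from each other, and *Cd14* rose by a log2 fold change of 4.63 ± 0.49 (adjusted p = 0.00218 by edgeR, and called in all 16 alternatives). *Ly6c2* (ENSMUSG00000022584, chromosome 15, 75108158 to 75111970), a surface protein of inflammatory monocytes, had 0.07 and 0.13 FPKM in APAP, against 0.16 and 0.08 FPKM in control. The libraries overlapped, and at 4 to 12 fragments no difference was detectable for *Ly6c2* (interval of the log2 fold change -2.02 to 1.57). Of the 100-base windows in *Ly6c2* transcripts 5.81% also occur in *Ly6c1*, a gene of endothelial cells, so reads can be shared between them, and no window of the other 9 members occurs in another gene. *Ly6c1*, below the filter, had 1.76 and 0.95 FPKM in APAP, against 0.06 and 0.21 FPKM in control.

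Markers of blood cells were measured beside the rise of *Cd14* in APAP over control, where 23.3% of all tested genes rose. *Ccr2* had 0.09 and 0.06 FPKM in APAP, against 0.14 and 0.14 FPKM in control. Of 12 monocyte markers, *Ccr2* among them, 2 were tested and *Thbs1*, a matrix glycoprotein that platelets and other cells also make, rose (log2 fold change 5.36 ± 0.55, adjusted p = 0.00207 by edgeR, with 2.47 to 5.98 among the alternatives, the lowest under limma on log2(FPKM + 1)). *Thbs1* entered the test only through the APAP libraries, with a mean of 0.15 FPKM in control and 0.06 FPKM in COS+APAP. Its call is thus not independent of the filter. *Plac8* did not pass. *Gpr141* was at 0 in both APAP and both control libraries. *Chil3* was at 0 in both APAP libraries, in control replicate 3 and in COS+APAP replicate 3. The 12 markers summed to 11.96 and 9.51 FPKM in APAP, against 4.81 and 3.88 FPKM in control. *Thbs1* alone made this gap, with 7.69 and 3.64 FPKM in APAP, against 0.20 and 0.10 FPKM in control. The other 11 markers summed to 4.27 and 5.87 FPKM in APAP, against 4.61 and 3.78 FPKM in control, and these overlapped. Of 15 neutrophil markers 3 were tested and *S100a9*, a calcium-binding protein of neutrophils, rose (18.10 and 5.60 FPKM in APAP, against 2.85 and 2.89 FPKM in control, adjusted p = 0.0294 by edgeR), a call lost without control replicate 1 (0.107), control replicate 3 (0.114) or APAP replicate 1 (0.0871). The neutrophil markers summed to 34.77 and 11.37 FPKM in APAP, against 4.42 and 7.07 FPKM in control, with *Ly6g*, which defines neutrophils, at 0 in all 6 libraries. The APAP library with more *Cd14* was thus also the one with the higher sum of neutrophil markers. The part of these cells in the level of *Cd14* was not tested.

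Other genes of Kupffer cell identity showed no common direction in APAP over control, where 23.3% of all tested genes rose and 22.1% fell. Of 21 listed, 12 were tested, of which 2 rose, 1 fell and 9 did not pass, and their median log2 fold change was 0.02 beside 0.00 over all genes. Those that rose were the heme oxygenase *Hmox1* (7.24, adjusted p = 0.000878 by edgeR), which hepatocytes also induce under oxidative stress, and the adhesion molecule *Vcam1* (1.95, adjusted p = 0.00144). The succinate receptor *Sucnr1* fell by 3.23 (adjusted p = 0.00131). The folate receptor *Folr2* (2.735 ± 1.591 FPKM in APAP and 2.43 ± 0.5233 FPKM in control), the platelet-type lectin receptor *Clec1b* (1.27 ± 0.297 FPKM in APAP and 1.255 ± 0.1626 FPKM in control) and the complement factor *C6* did not pass. *Hmox1* had 771.52 and 689.08 FPKM in APAP, against 5.28 and 5.35 FPKM in control, and without it the list summed to 70.63 and 81.07 FPKM in APAP, against 93.34 and 82.45 FPKM in control. Much of that sum was *C6* (26.96 and 36.77 FPKM in APAP, against 30.70 and 23.99 FPKM in control) and *Paqr9* (21.67 and 16.28 FPKM in APAP, against 25.63 and 25.29 FPKM in control). Of 16 genes shared by macrophages and other myeloid cells, 13 were tested, with 4 higher, 1 lower and 8 not passing, and a median of 0.29. *Laptm5*, a lysosomal protein of blood cells, rose by 1.51 (adjusted p = 0.00441) and the lysosomal protease *Ctss* by 0.79 (adjusted p = 0.0203). The call of *Ctss* did not hold with control replicate 3 (0.0855), APAP replicate 1 (0.0564) or APAP replicate 3 (0.0862) left out. *Aif1*, a calcium-binding protein of macrophages, had a log2 fold change of -1.62 (adjusted p = 0.0193) and thus fell. Its mean was 2.53 FPKM in control, 0.75 FPKM in APAP and 0.83 FPKM in COS+APAP. *Aif1* passed the filter only through the control libraries, so its call is not independent of the filter. Leaving out control replicate 1 (0.0756), APAP replicate 1 (0.0872) or APAP replicate 3 (0.0568) ended that call. *Cd68*, *Lyz2* and *C1qa* did not pass.

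Of 17 genes of lipopolysaccharide and Toll-like receptor signalling, the pathway in which CD14 acts, 9 were tested, of which 5 rose and 4 did not pass (median 0.78). Of all tested genes, 23.3% rose and 22.1% fell in APAP over control. *Irak2*, a kinase below the receptor, rose by 2.49 (adjusted p = 0.00571 by edgeR), the ubiquitin ligase *Traf6* by 1.60 (adjusted p = 0.00153) and *Lbp*, the plasma protein that delivers lipopolysaccharide to CD14, by 1.36 (adjusted p = 0.00375). *Tlr4* itself stayed below the filter at 0.20 and 0.02 FPKM in APAP, against 0.13 and 0.04 FPKM in control, and its partner *Ly96* did not pass (-0.46 ± 0.30, adjusted p = 0.255). Among transcription factors of macrophages, of which 8 of 14 were tested, 4 rose, 1 fell and 3 did not pass. *Id3* rose by 2.44 (adjusted p = 0.00218) and *Id1* by 1.48 (adjusted p = 0.00214), both of which other liver cells express as well. Of 9 monocyte-attracting chemokines 3 were tested. *Ccl6* rose by 2.89 (adjusted p = 0.00171) and *Ccl5* by 1.34 (adjusted p = 0.0226), while *Ccl9* fell by 0.64 (adjusted p = 0.0215), and the last 2 calls were lost without either control library or APAP replicate 1 (0.0592 to 0.0934), that of *Ccl9* also without APAP replicate 3 (0.0909). *Ccl2*, the ligand of CCR2, had 3.84 and 0.49 FPKM in APAP, against 0.24 and 0.30 FPKM in control, and stayed below the filter.

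The comparison of COS+APAP with APAP asks how the pretreatment changed this picture. *Cd14* and *Adgre1* fell and *Marco* rose, that is 2 lower and 1 higher of the 9 tested members, where 11.1% of all tested genes fell and 11.2% rose, 22.4% in all. The members' median log2 fold change was -0.08, beside 0.01 over all genes. *Cd14* had 2.55 and 1.81 FPKM in COS+APAP, against 31.76 and 14.51 FPKM in APAP. Both COS+APAP libraries lay well below both APAP libraries, and *Cd14* fell by 3.39 on the log2 scale (SE 0.46, adjusted p = 0.0108 by edgeR). Without COS+APAP replicate 2 or replicate 3 the log2 fold change of *Cd14* was -3.65 and -3.18 and just missed the threshold (adjusted p = 0.0512 and 0.0552).

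*Adgre1* had 0.40 and 0.63 FPKM in COS+APAP, against 1.47 and 1.78 FPKM in APAP. The groups did not overlap, and *Adgre1* fell by 1.64 on the log2 scale (SE 0.41, adjusted p = 0.0415 by edgeR). It had passed the filter only through the APAP libraries, where it was highest, so this call is not independent of the filter. The call was lost with the filter at 0.1 FPKM (adjusted p = 0.0534 by edgeR) and without a filter (0.0647). With any 1 of the 4 libraries left out the call was lost, at adjusted p = 0.167 without COS+APAP replicate 2, 0.0846 without COS+APAP replicate 3, 0.116 without APAP replicate 1 and 0.127 without APAP replicate 3. *Marco* had 11.71 and 14.98 FPKM in COS+APAP, against 8.17 and 9.46 FPKM in APAP, and rose by 0.62 ± 0.16 (adjusted p = 0.0477 by edgeR). The groups did not overlap, but 3 of 15 alternatives gave the call, and it was lost without any 1 of the 6 libraries (adjusted p = 0.0661 to 0.188).

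The 5 other Kupffer cell members and *Csf1r* did not pass between COS+APAP and APAP. The interval of the log2 fold change was -0.56 to 0.23 for *Clec4f*, -0.30 to 0.70 for *Vsig4*, -0.37 to 0.68 for *Cd163*, -0.63 to 0.46 for *Cd5l* and -0.57 to 0.46 for *Csf1r*, and wider for *Timd4* (-1.61 to 0.73). *Clec4f* had 23.05 and 22.71 FPKM in COS+APAP, *Cd5l* 18.73 and 20.87 FPKM, *Vsig4* 9.89 and 10.10 FPKM, *Timd4* 1.14 and 1.35 FPKM, *Csf1r* 3.87 and 4.05 FPKM and *Cd163* 3.62 and 3.03 FPKM. Each of these values lay between the 2 APAP libraries of its gene. *Ly6c2* had 0.09 and 0.20 FPKM in COS+APAP. The 6 Kupffer cell genes summed to 68.14 and 73.04 FPKM in COS+APAP, 57.22 and 82.30 FPKM in APAP, and 53.69 and 48.99 FPKM in control.

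Against control, which shares its libraries with the first comparison, COS+APAP had 2 members higher, *Marco* and *Cd163*, and none lower by edgeR (0 also at an unadjusted p below 0.05, and 0 by DESeq2 and limma), where 10.7% of all tested genes rose and 10.3% fell, 21% in all. *Marco* had 11.71 and 14.98 FPKM in COS+APAP, against 4.89 and 4.78 FPKM in control, and rose by 1.62 ± 0.17 (adjusted p = 0.00511 by edgeR, called in all 15 alternatives). *Cd163* had 3.62 and 3.03 FPKM in COS+APAP, against 1.86 and 1.70 FPKM in control, and rose by 1.05 ± 0.21 (adjusted p = 0.0253), a call lost without any 1 COS+APAP or control library (0.0767 to 0.111). *Clec4f*, *Vsig4* and *Timd4*, above control in both libraries, and *Csf1r*, below it in both, did not overlap control and did not pass. The same held for *Cd5l* (0.64 ± 0.22, adjusted p = 0.0947 by edgeR) and *Cd14* (1.23 ± 0.44, adjusted p = 0.106), both above control. Without APAP replicate 3, which enters this comparison only through the shared fit, both passed (adjusted p = 0.0455 for *Cd5l* and 0.0494 for *Cd14*), as *Cd5l* did without APAP replicate 1 (0.0464).

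Relative to *Clec4f* in the same library, a ratio that no scaling between libraries can alter, the members parted. *Marco* per *Clec4f* was 0.508 and 0.660 in COS+APAP, 0.373 and 0.314 in APAP and 0.223 and 0.235 in control, with no overlap between any of the groups. *Cd163* per *Clec4f* was 0.157 and 0.133 in COS+APAP, 0.111 and 0.121 in APAP and 0.0847 and 0.0837 in control, in the same order and again without overlap. *Csf1r* per *Clec4f* was 0.168 and 0.178 in COS+APAP, 0.149 and 0.170 in APAP and 0.235 and 0.265 in control, so that both groups with APAP lay below control. *Vsig4* per *Clec4f* was 0.429 and 0.445 in COS+APAP, 0.329 and 0.347 in APAP and 0.422 and 0.389 in control. *Cd5l* per *Clec4f* was 0.813 and 0.919 in COS+APAP, 0.757 and 0.866 in APAP and 0.68 and 0.657 in control. Here COS+APAP and APAP overlapped. *Timd4* per *Clec4f* was 0.0495 and 0.0594 in COS+APAP, 0.0425 and 0.0836 in APAP and 0.036 and 0.0478 in control, where APAP overlapped both other groups. These ratios are a description of 2 libraries a group and were not tested.

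**Figure D3:**
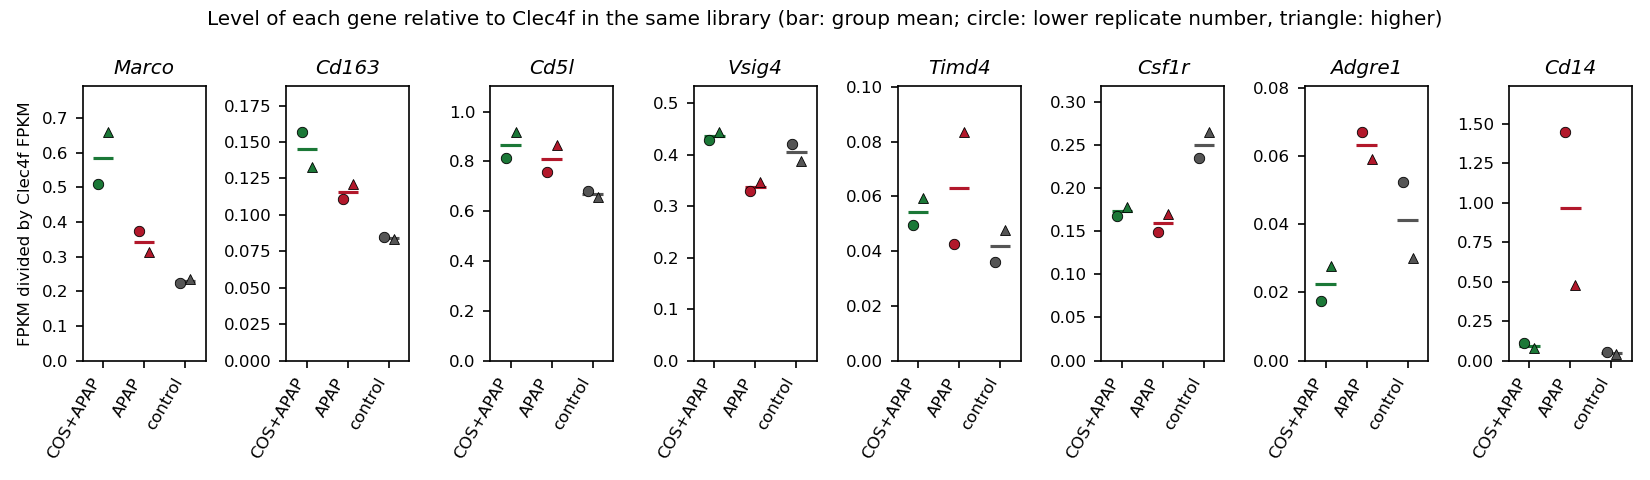
FPKM of 8 genes divided by the FPKM of *Clec4f* in the same library (linear vertical axes from 0), in COS+APAP, APAP and control. Points are libraries and bars are means of 2. The ratio of *Marco* is highest in COS+APAP (0.508 and 0.660) and lowest in control (0.223 and 0.235), and that of *Adgre1* is lowest in COS+APAP (0.0174 and 0.0277).

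The 250 bases before the start of transcription are shown for 3 Kupffer cell genes that rose in APAP, *Marco*, *Cd163* and *Cd5l*, and for *Vsig4*, which passed in no comparison (RefSeq, GRCm38.p6, 5′ to 3′ on the gene's strand). Of the 10 members, 7 were searched, including *Clec4f*, *Timd4* and *Ly6c2*, whose windows are not shown. Capitals mark GAGGAA on either strand, the core of sites of the myeloid Ets factor PU.1, which occurs in 23.3% of 32851 promoter windows of this length.
Marco, minus strand, chr1:120505025-120505274: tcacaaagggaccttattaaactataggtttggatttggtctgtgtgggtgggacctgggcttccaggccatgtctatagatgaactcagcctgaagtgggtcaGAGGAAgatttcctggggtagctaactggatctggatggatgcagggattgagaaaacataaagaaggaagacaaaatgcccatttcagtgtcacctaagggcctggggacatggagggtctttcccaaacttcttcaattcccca
Cd163, plus strand, chr6:124304401-124304650: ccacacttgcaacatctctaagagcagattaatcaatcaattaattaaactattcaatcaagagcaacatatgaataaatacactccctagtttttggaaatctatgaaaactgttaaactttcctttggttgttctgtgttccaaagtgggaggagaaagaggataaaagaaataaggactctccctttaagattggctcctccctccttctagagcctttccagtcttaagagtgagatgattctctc
Cd5l, plus strand, chr3:87357631-87357880: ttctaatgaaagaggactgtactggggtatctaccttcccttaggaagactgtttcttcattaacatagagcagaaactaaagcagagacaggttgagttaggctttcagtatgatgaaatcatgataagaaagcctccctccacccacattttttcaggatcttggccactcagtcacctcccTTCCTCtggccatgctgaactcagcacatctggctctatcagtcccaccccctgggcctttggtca
Vsig4, minus strand, chrX:96293439-96293688: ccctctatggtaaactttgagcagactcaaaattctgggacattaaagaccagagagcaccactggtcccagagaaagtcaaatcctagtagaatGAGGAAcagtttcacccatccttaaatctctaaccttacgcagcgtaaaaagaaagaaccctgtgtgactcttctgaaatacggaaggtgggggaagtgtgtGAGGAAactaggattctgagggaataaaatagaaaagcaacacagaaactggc
The motif occurs before 4 of the 7 members searched, *Marco*, *Cd5l* (as TTCCTC, its reverse complement), *Vsig4*, which holds it at 2 places, and *Ly6c2*, which has 2 RefSeq starts. It is not in the windows of *Cd163*, *Clec4f* and *Timd4*. The AP-1 motif TGANTCA (6.75% of windows) is in 0 of the 7 on either strand. The antioxidant response core TGACNNNGC (10.2% of windows, and overlapping TGANTCA where both share TGAC) is in 1 of the 7, that of *Clec4f*. It lies there on the strand opposite to the gene's, 61 to 53 bases before the RefSeq start. A match describes these letters only, and its absence says nothing of the factor.

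Markers of other cell types were measured beside these changes between COS+APAP and APAP, where 11.1% of all tested genes fell and 11.2% rose. Of 9 tested sinusoidal endothelial genes 7 fell and 2 did not pass (median -1.31), among them the hyaluronan receptor *Lyve1* (-1.95, adjusted p = 0.0227 by edgeR) and *Pecam1* (-1.51, adjusted p = 0.00924). Their list summed to 24.02 and 19.50 FPKM in COS+APAP, against 48.20 and 47.12 FPKM in APAP and 38.83 and 44.68 FPKM in control, with no gene at 0. Of 5 tested genes of dendritic cells and MHC class II, which Kupffer cells also express, 4 fell (median -1.53), with *Cd74*, the chaperone of MHC class II, at 7.48 and 7.62 FPKM in COS+APAP, against 28.32 and 25.57 FPKM in APAP (adjusted p = 0.00729). This list summed to 15.75 and 15.80 FPKM in COS+APAP, against 55.23 and 45.29 FPKM in APAP and 45.1 and 47.16 FPKM in control. Of its dendritic cell genes, *Cd209a* was at 0 in COS+APAP replicate 2 and *Flt3* in APAP replicate 3. *Xcr1* was at 0 in COS+APAP replicate 3 and in APAP replicate 1. Of 5 tested erythroid genes 4 fell (median -1.99), and the same 4, globin genes with near-identical copies that may share reads, had also risen in APAP over control. The erythroid list summed to 309.4 and 316.4 FPKM in COS+APAP, against 1492 and 1075 FPKM in APAP and 297.6 and 269.4 FPKM in control. In COS+APAP against control, 5 of the 9 endothelial genes (median -0.91) were also lower, beside 10.3% of all tested genes. So were 3 of the 5 dendritic cell and MHC class II genes (median -1.29), while none of the 5 erythroid genes passed. The part of these cells in the falls of *Adgre1* and *Cd14* was not tested. Calls without COS+APAP replicate 2 were lost for *Lyve1* (0.0523) and *Pecam1* (0.0502), and for *Lyve1* also without APAP replicate 1 (0.0993) or 3 (0.0515).

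Other myeloid genes moved in both directions between COS+APAP and APAP, where 11.2% of all tested genes rose and 11.1% fell. Of the 12 other Kupffer cell identity genes tested 2 rose, 2 fell and 8 did not pass (median -0.02 beside 0.01 over all genes). *Hmox1* fell by 2.54 (adjusted p = 0.00768 by edgeR) and was 1 of the 2 that fell, whereas *Sucnr1* rose by 1.57 (adjusted p = 0.013) and the B cell chemokine *Cxcl13* by 2.10 (adjusted p = 0.035). The mean of *Cxcl13* was 3.705 FPKM in COS+APAP, 0.875 FPKM in APAP and 1.11 FPKM in control. *Cxcl13* passed the filter only through the COS+APAP libraries, so its call is not independent of the filter. Without a filter that call was lost (adjusted p = 0.0518 by edgeR). Of the 13 general myeloid genes *Laptm5* (-1.21, adjusted p = 0.018) and *Ctss* (-0.77, adjusted p = 0.0392) fell and 11 did not pass (median -0.30). The calls of *Sucnr1*, *Cxcl13*, *Laptm5* and *Ctss* were each lost without at least 1 library (adjusted p up to 0.0673 for *Sucnr1*, 0.149 for *Cxcl13*, 0.0872 for *Laptm5* and 0.148 for *Ctss*). *Thbs1* had 0.06 FPKM in both COS+APAP libraries, or about 7 and 8 fragments, against 7.69 and 3.64 FPKM in APAP. It fell by 6.48 on the log2 scale (adjusted p = 0.00589 by edgeR), and the size is loosely set, at -6.93 to -2.58 among the alternatives, all of which gave the call. This call too is not independent of the filter, which *Thbs1* passed only through the APAP libraries. *S100a9* had 1.99 and 1.47 FPKM in COS+APAP and fell (-2.76, adjusted p = 0.0295), a call lost without any 1 library other than APAP replicate 3 (0.0532 to 0.129). *Lbp* rose further by 0.96 (adjusted p = 0.0209), with 50.25 and 65.65 FPKM in COS+APAP, against 27.89 and 32.41 FPKM in APAP, a call lost without COS+APAP replicate 3 (0.0696) or either APAP library (0.103 and 0.0608). Of the 13 tested scavenger and efferocytosis genes 2 rose, 2 fell and 9 did not pass. *Stab1*, a scavenger receptor of sinusoidal endothelium and some macrophages, rose by 0.81 (adjusted p = 0.00952 by edgeR, called in all 15 alternatives).

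**Figure D4:**
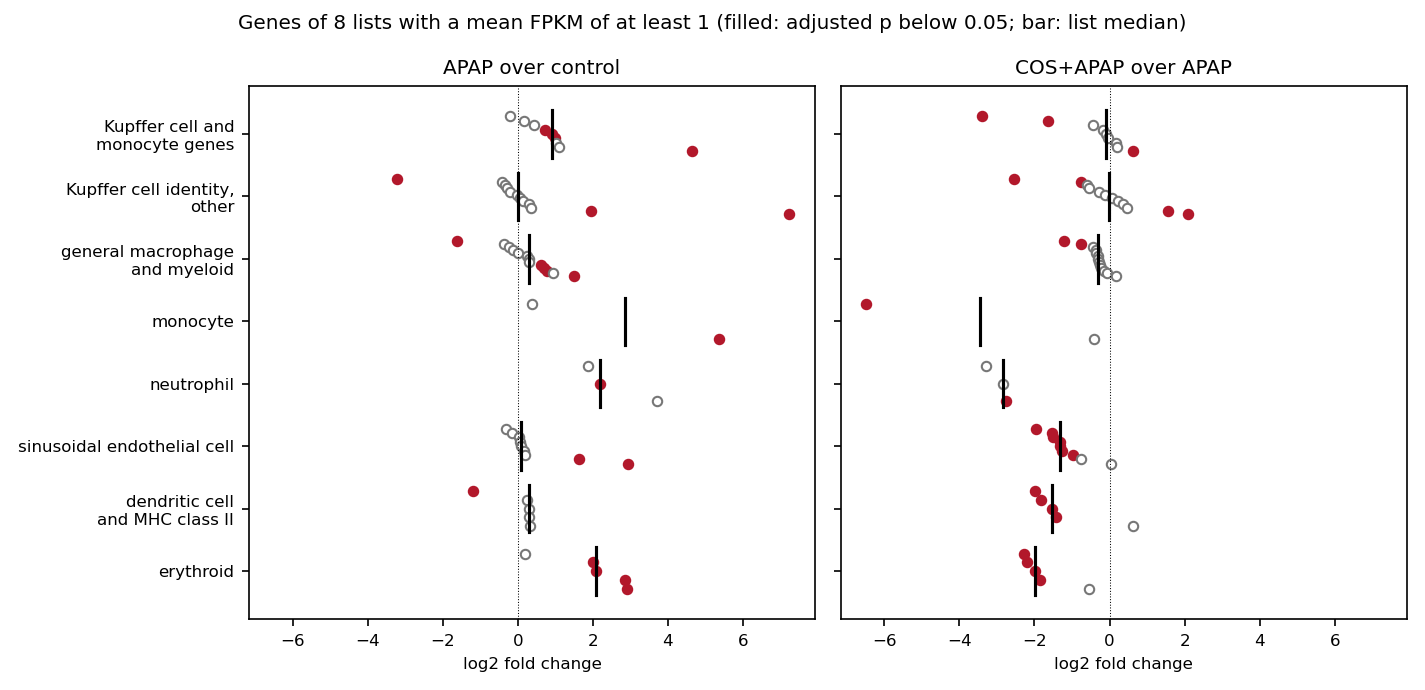
Log2 fold changes (horizontal axes) of the tested genes of 8 lists in APAP over control (left) and COS+APAP over APAP (right). Points are genes, filled where the adjusted p was below 0.05, and black bars are list medians. The sinusoidal endothelial list has its median at -1.31 in COS+APAP over APAP, while that of the Kupffer cell and monocyte genes is at -0.08.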

How the data were processed

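Poly(A) RNA of 6 liver libraries was sequenced paired-end, per the labels' protocols. The submitters' processing notes name HISAT2 2.0 and StringTie 1.3.0 as tools, and for the genome build the sources used here give nothing. Estimated counts and FPKM per gene were deposited by the authors in 1 table, per the file headers. Its coordinates are printed as deposited. Value columns that matched no sample given here, 6 in number, were not used.

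Members and companion lists were chosen with earlier results of these data known. Estimated counts were rounded and tested in R 4.3.3 with edgeR 4.0.16 (quasi-likelihood test, TMM scaling, 1 model of 3 groups, 3 residual degrees of freedom), over 10051 genes with a mean of at least 1 FPKM, with Benjamini-Hochberg adjustment and a threshold of 0.05. The test was checked on simulated data. Alternatives were DESeq2 1.42.0, limma 3.58.1 on log2(FPKM + 1) or log2(FPKM + 0.1), other scalings, other filters, counts divided by 4, 2 groups only, each library left out, and a replicate block. Named list genes were up to 3 called genes a list and comparison with the largest changes, plus set markers. Because 1 fragment gave about 4 counts, counts as deposited overstate the counting precision.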

Additional observations from a re-analysis of the deposited data

How the results depend on the processing

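In APAP against control, 4 members rose, but 2 under limma on log2(FPKM + 1), 2 with a replicate block, and 2 to 6 with 1 library left out, where 0 to 1 fell. All genes called there numbered 4561, and 3033 to 4117 with 1 library left out. In COS+APAP against APAP, 1 member rose, and 0 under library totals, under limma with either pseudocount (1 or 0.1), without a filter, with the filter at 0.1 FPKM, with 2 groups only, or with any 1 library left out (0 to 0). The 2 that fell there were 1 without a filter, 1 with the filter at 0.1 FPKM, and 0 to 2 with 1 library left out. All genes called were 2249, against 3552 by DESeq2 and 612 to 1941 with 1 library left out. In COS+APAP against control, 2 members rose, 4 by DESeq2, 1 under limma on log2(FPKM + 1), and 1 to 4 with 1 library left out, and all genes called were 2109, against 3421 by DESeq2 and 590 to 1716. Fits with 1 library fewer have fewer degrees of freedom, and a lone library is assumed there to vary like the other groups. The cause of the other changes was not tested. Single values near 0 changed sign when 1 library was left out. In APAP against control their log2 fold changes ranged from -0.53 to 0.05 for *Csf1r*, -0.09 to 0.38 for *Vsig4*, -0.43 to 0.76 for *Folr2*, -0.08 to 0.34 for *Clec1b* and -0.31 to 0.02 for *Lyz2*. In COS+APAP against APAP they ranged from -0.35 to 0.25 for *Cd5l*, -0.02 to 0.46 for *Vsig4*, -0.08 to 0.44 for *Cd163*, -0.35 to 0.06 for *Clec4f*, -0.97 to 0.41 for *Timd4*, -0.32 to 0.27 for *Csf1r*, -0.74 to 0.46 for *Folr2*, -0.12 to 0.30 for *Clec1b*, -0.75 to 0.34 for *C6*, -0.31 to 0.26 for *Ly96* and -0.45 to 0.51 for *Csf1*. In COS+APAP against control they ranged from -0.18 to 0.29 for *Folr2*, -0.40 to 0.69 for *C6*, -0.10 to 0.11 for *C1qa* and -1.61 to 0.17 for *S100a8*. Also in COS+APAP against control, *Folr2* was -0.14 under library totals, -0.08 and -0.11 under limma with pseudocounts 1 and 0.1, and *C1qa* was 0.01 without a filter and with the filter at 0.1 FPKM. Library totals moved the median of all genes by -0.15 in APAP and by -0.16 in COS+APAP against control. Over the tested members, *Ly6c2* where a lower filter let it in, and the settings, 354 values kept direction and side of the threshold, 42 lost the call, 12 gained one and 9 changed sign. Control and APAP share replicate numbers 1 and 3. Deviations of same-numbered libraries had a correlation of 0.0175 across 10051 genes, which are not independent. Each group gives only 1 such difference, so this value cannot show whether same-numbered libraries were paired. With the replicate block *Cd163* (adjusted p = 0.0625) and *Cd5l* (0.101) were not called by edgeR. No paired analysis was possible for the comparisons with COS+APAP because those groups share fewer than 2 numbers.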

Other observations

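Of 10 lymphocyte genes none reached a mean of 1 FPKM, and they summed to 1.51 and 1.04 FPKM in COS+APAP, 1.51 and 1.62 FPKM in APAP and 2.72 and 2.56 FPKM in control. Of 6 hepatocyte genes, Hnf4a, a transcription factor of hepatocytes, rose in APAP over control (log2 fold change 1.10, adjusted p = 0.00668 by edgeR), Ttr, the thyroid hormone carrier, fell (-0.78, adjusted p = 0.0145, and 0.086 without APAP replicate 3), and 4 did not pass. Between COS+APAP and APAP 6 of these 6 did not pass. In COS+APAP over control 2 of the 6 rose, beside 10.7% of all tested genes, namely Tat, a gluconeogenic aminotransferase (2.08, adjusted p = 0.0161 by edgeR), and Hnf4a (0.84, adjusted p = 0.0299), and both calls were lost without control replicate 3 (0.0726 for Tat, 0.123 for Hnf4a) or COS+APAP replicate 3 (0.0738 for Tat, 0.113 for Hnf4a), that of Hnf4a also without control replicate 1 (0.0831) or COS+APAP replicate 2 (0.0959). Of 7 colony-stimulating factors and receptors 2 were tested and neither passed in any comparison.

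By the root-mean-square difference of centred log2(FPKM + 1) over the 6 libraries, the tested genes whose pattern was most like that of a member were Tacc2 for Marco (0.0734), Furin for Cd163 (0.0616), Ahdc1 for Clec4f (0.0413), Klhdc10 for Vsig4 (0.0411) and Tfr2 for Cd5l (0.0726). Spi1, the gene of PU.1, was the third closest to Csf1r (0.0652), after Gm11993 (0.0572) and Dgkz (0.062). Cd14 had no gene as close, with Actg1 (0.291), Dusp4 (0.294) and Thbd (0.304) nearest. The 6 libraries share depth and groups, so the likeness is a description only.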
